A study of Mus musculus with 7 samples.

Results

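Retnla, Prg2 and 8 further genes known from eosinophils (Prg3, Epx, Ear1, Ear2, Ear6, Siglecf, Ccr3 and Alox15) were followed across 7 libraries of type 2 innate lymphoid cells (ILC2s) from mouse hearts. They are 10 of the 55335 Ensembl identifiers in the deposited tables, and each symbol matched 1 identifier. The genes were chosen by name with the difference between allografts and naive hearts already known, so their values in that contrast are a description and carry no test. The question was whether the eosinophil genes rise together.

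The study compared ILC2s of naive hearts (3 libraries) with ILC2s of heart allografts (4 libraries) that had been taken 7 days after a BALB/c heart was placed in a C57BL/6 recipient, a model of acute rejection. Cells were sorted as CD45+, lineage-negative and ST2+, where ST2 is the receptor for interleukin 33, and their RNA was amplified to full-length cDNA before sequencing. Each library pooled 4 to 7 hearts, so p-values measure the spread between pools and not between animals. The labels give no genotype, sex or age, and do not give the strain of the naive hearts or the antibodies of the lineage gate. They carry the entry of 7 days for the naive libraries too.

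Eosinophils are granulocytes that mature under interleukin 5 and are drawn into tissue by eotaxins through the receptor CCR3. Their granules hold major basic protein (Prg2), its homologue Prg3, eosinophil peroxidase (Epx) and the eosinophil-associated ribonucleases of the Ear family, while Siglecf and Alox15 encode a sialic acid-binding surface receptor and a lipoxygenase. Retnla encodes RELM-alpha, a secreted resistin-like protein that is induced by interleukins 4 and 13 through STAT6 in macrophages and is also made by eosinophils. ILC2s are themselves a source of interleukins 5 and 13. In a bulk library, fewer cells of a type and less RNA per cell cannot be told apart.

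Total counts lay between 29107326 and 53044907 per library. Levels are given as CPM, a gene's counts scaled to the library total. A count of 0 allows up to 3 counts, which is 0.0566 to 0.103 CPM depending on the library, and this floor covers counting error only. Naive replicate 2 stood apart from the other 6 libraries. Mitochondrial transcripts took 26.5% of its counts against 2.04% to 3.11% elsewhere, and Il1rl1, which encodes ST2, had 6.79 CPM there against 343 to 756 CPM. Its Gata3 (34.8 CPM), Rora (62.6 CPM) and Ptprc (11.7 CPM) were also below every other library, whose lowest values were 654, 1025 and 239 CPM. Values without this library are therefore given as well. Genes above 3 counts numbered 14224 and 12492 in naive replicates 1 and 3, against 18549 in naive replicate 2 and 17347 to 18974 in the allografts. Values without naive replicate 2 thus rest on the naive libraries with the fewest genes detected.

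In the allografts the 10 genes did not follow 1 pattern. Retnla and Prg2 were abundant in all 4 allografts and at 0 in all 3 naive libraries. Ear6 and Ccr3 were also higher in each of the 4 allografts than in each naive library, at lower levels. Prg3, Epx, Alox15 and Ear1 were at 0 in allograft replicate 3, Siglecf was at 0 in allograft replicate 2, and Ear1 and Ear2 were as high in naive replicate 3 as in any allograft. More than 3 counts were reached by 10, 9, 6 and 10 of the 10 genes in allograft replicates 1 to 4, and by 1 (Ccr3), 0 and 2 (Ear1 and Ear2) in naive replicates 1 to 3.

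Thus 4 of the 10 genes had every allograft above every naive library, where 12.5% of the 17015 genes tested did so. The same 4 genes separated the groups without naive replicate 2, where the share among 18037 genes was 21.0%. The number was 7 without allograft replicate 3, where the share of all genes was not computed, so nothing is read from it. Of the 10 genes, 8 passed the low-count filter and Siglecf and Alox15 did not. Retnla and Prg2 were 2 of the 6 genes with an adjusted p under 0.05 in edgeR's quasi-likelihood test (0.0353% of genes tested), which is the result they were selected on. Without naive replicate 2, 3.1% of genes tested passed, and Ear6 was added to them. DESeq2 called Retnla, Prg2, Prg3, Epx and Ear6 with all libraries, where it called 6.66% of the 15197 genes it gave an adjusted p. Nothing is read from these calls, since the 10 genes were selected on the contrast. An unadjusted p under 0.05 in edgeR's test was reached by 1748 genes (10.3%), a share to set beside the counts for the other gene lists.

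**Figure D1:**
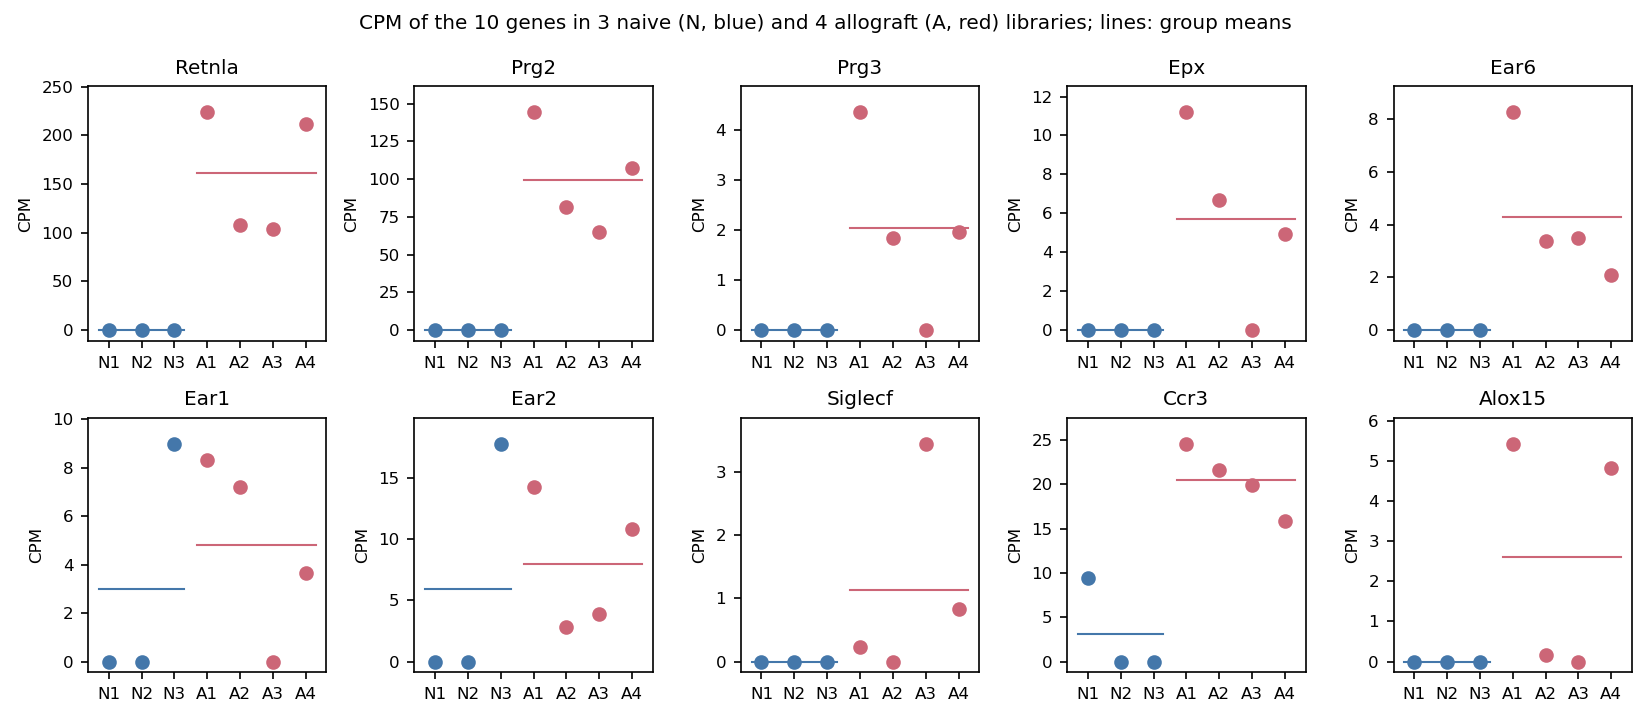
Levels of the 10 genes in CPM (vertical axes, linear, each with its own scale) in 3 naive libraries (N1 to N3, blue) and 4 allograft libraries (A1 to A4, red). Points are libraries and lines are group means. Retnla, Prg2, Ear6 and Ccr3 have all 4 red points above all 3 blue points, whereas Ear1 and Ear2 have 1 blue point (N3) above every red point.

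Retnla (ENSMUSG00000061100) lies at chr16:48842551-48844461 on the plus strand of mm10. No naive library had a count of it, and levels were 223.8, 107.7, 104.0 and 211.7 CPM in allograft replicates 1 to 4, from 3490 to 9854 counts. The allografts fell into a higher pair (replicates 1 and 4) and a lower pair (replicates 2 and 3), and none came near the naive libraries. The allograft mean was 162 ± 64.8 CPM (SD, n = 4), at least 2538-fold higher than the naive floor of 3 counts per library, or at least 2581-fold higher without naive replicate 2. In FPKM, which also divides by transcript length, Retnla reached 234 ± 93.2 (SD, n = 4) and ranked between 202 and 417 among the 17015 genes tested.

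Because Retnla is a known STAT6 target, the bases upstream of it were read from RefSeq's promoter windows (GRCm38.p6, 250 bases before to 50 after a start). Such windows were found for 8 of the 10 genes, all except Prg2 and Alox15. The 192 bases at chr16:48842359-48842550 (plus strand) end just before the annotated gene, and the capitals mark TTC, any 4 bases, GAA, the spacing of STAT6-type sites.
Retnla upstream: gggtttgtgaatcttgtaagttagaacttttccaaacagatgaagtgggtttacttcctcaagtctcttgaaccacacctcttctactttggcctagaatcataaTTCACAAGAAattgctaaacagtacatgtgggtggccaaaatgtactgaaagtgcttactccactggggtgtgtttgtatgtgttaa
The marked match began 145 bases before RefSeq's start, and a C/EBP-type match (TTGC, any 2 bases, AA) began 134 bases before it. The STAT6-type letters occurred in 7.0% of 32851 promoter windows and the C/EBP-type letters in 10.8%, both strands searched. A shorter STAT-type spacing (TTC, any 3 bases, GAA) was in 8.3% of windows and in 0 of the 8 genes. Among the other genes with a window, Epx held the STAT6-type letters 5 bases before its start, and Ear1 and Ear2 held the C/EBP-type letters. The letters GATAA, those of erythroid and eosinophil zinc finger factors, were in 25.4% of windows and occurred in Prg3, Siglecf, Ccr3, Ear1, Ear2 and Ear6. These matches describe letters and not bound sites.

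Of the other resistin-family genes, Retn and Retnlb had 0 counts in all 7 libraries. Retnlg, a neutrophil-expressed relative that lies 28159 bases from Retnla, measured 0, 3.28 and 5.16 CPM in the 3 naive libraries against 62.0, 38.2, 37.7 and 47.3 CPM in allograft replicates 1 to 4. Every allograft exceeded every naive library, but the log2 fold change of 3.76 (SE 1.55) did not pass edgeR's test (adjusted p = 0.464, and 0.278 without naive replicate 2). The coding sequences of Retnla and Retnlg were 70.8% identical and no 50-base stretch of a Retnla transcript occurred in another gene, so reads of that length separate them.

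Prg2 (ENSMUSG00000027073, chr2:84980461-84983632, plus strand) encodes the major basic protein of the granule core. It had 0 counts in each naive library and 144.4, 81.6, 65.0 and 107.5 CPM in allograft replicates 1 to 4, from 2645 to 6357 counts. As with Retnla, replicates 1 and 4 were the higher pair, and no allograft approached the naive values. The allograft mean of 99.6 ± 34.6 CPM (SD, n = 4) was at least 1562-fold higher than the naive floor, or at least 1589-fold higher without naive replicate 2. Retnla had more counts than Prg2 in each allograft, at a ratio of 1.55, 1.32, 1.6 and 1.97 in the 4 allografts.

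Prg3 (ENSMUSG00000027072), the homologue of major basic protein, starts 4582 bases after the end of Prg2, at chr2:84988215-84993886. It had 0 counts in each naive library, 4.36, 1.85 and 1.96 CPM in allograft replicates 1, 2 and 4, and 0 counts in replicate 3. Epx (ENSMUSG00000052234, chr11:87864000-87875536, minus strand), the granule peroxidase, had 0 counts in each naive library, 11.2, 6.67 and 4.91 CPM in allograft replicates 1, 2 and 4, and again 0 counts in replicate 3. Both genes thus overlapped the naive libraries through 1 allograft. The allograft means were at least 32.0-fold (Prg3) and 89.3-fold (Epx) higher than the naive floor, and at least 19.9-fold for Prg3 without allograft replicate 1.

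The gap between Prg2 and the other granule genes held per length. Prg2 FPKM was 42.3, 40.1 and 71.9 times that of Epx in allograft replicates 1, 2 and 4, and 37.7, 50.7 and 63.8 times that of Prg3. Mean allograft FPKM was 103 ± 35.4 for Prg2, 1.80 ± 1.46 for Epx and 1.84 ± 1.62 for Prg3 (SD, n = 4). Prg2 ranked between 457 and 937 among the genes tested, whereas Epx ranked between 7057 and 10169 in the 3 allografts that had it. At the Epx to Prg2 count ratios of the other 3 allografts (0.0457 to 0.0817), the 2656 Prg2 counts of replicate 3 would go with 121 to 217 Epx counts, and at their Prg3 ratios with 48 to 80 Prg3 counts. Neither gene had a count there.

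**Figure D2:**
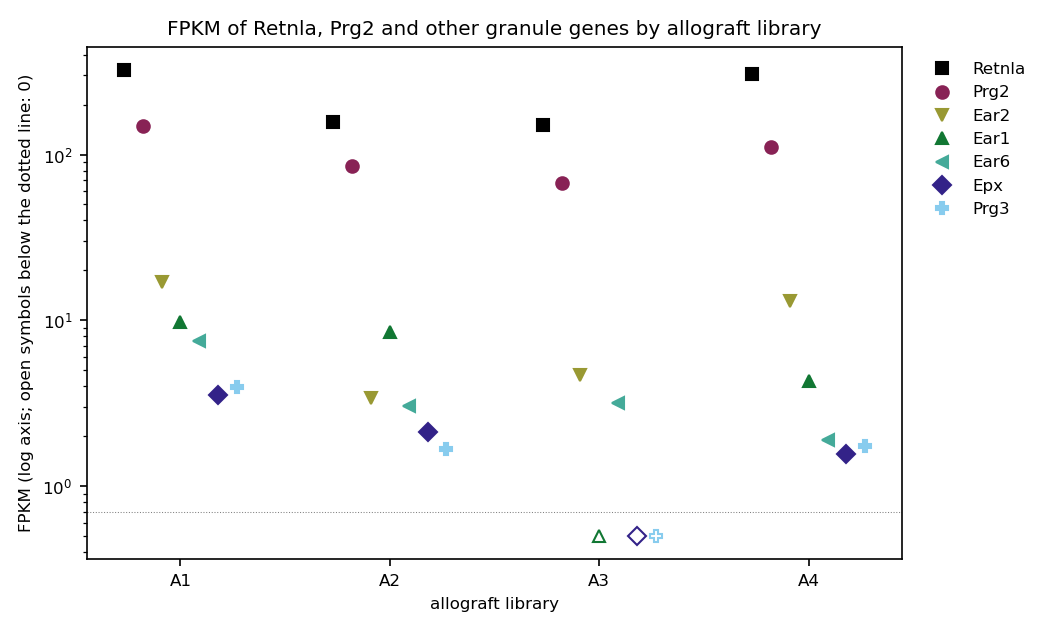
FPKM (vertical axis, log scale) of Retnla and 6 granule genes in the 4 allograft libraries (A1 to A4). Points are single libraries, spread sideways by gene, and open symbols below the dotted line stand for 0. Retnla and Prg2 lie between 67.6 and 322.5 FPKM in all 4 libraries, and Ear1, Epx and Prg3 are at 0 in A3.

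The Ear genes encode granule ribonucleases of near-identical sequence, and reads from them can be assigned to the wrong copy. Ear1 (ENSMUSG00000072601, chr14:43818765-43875517, minus strand) and Ear2 (ENSMUSG00000072596, chr14:44102654-44103534, plus strand) were 95.1% identical over their coding sequences, and Ear6 (ENSMUSG00000062148, chr14:51853699-51854643, plus strand) was 87.3% identical to Ear1 and 87.6% to Ear2. Bases 91 to 180 of the 3 coding sequences (GENCODE M21, mm10) show what a read has to tell them apart, with capitals where the 3 are not all alike.
Ear1: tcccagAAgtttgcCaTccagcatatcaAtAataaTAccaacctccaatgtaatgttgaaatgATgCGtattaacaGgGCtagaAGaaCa
Ear2: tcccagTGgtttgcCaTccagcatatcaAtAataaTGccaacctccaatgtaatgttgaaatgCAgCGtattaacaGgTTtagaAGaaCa
Ear6: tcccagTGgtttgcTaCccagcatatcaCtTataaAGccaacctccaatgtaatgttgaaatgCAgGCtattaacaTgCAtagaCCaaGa
In this stretch Ear1 and Ear2 differed at 7 bases and the 3 genes at 18. Of the 50-base stretches of each transcript, 57.4% for Ear1, 41.5% for Ear2 and 1.0% for Ear6 also occurred in another gene, mainly the pseudogene Ear-ps9, Ear2 and Ear10 for Ear1, and Ear10 and Ear1 for Ear2. Exons of Ear1 also overlap Ear-ps9 on the same strand. Values of Ear1 and Ear2 are therefore uncertain one by one.

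The likeness extended upstream. The 3 genes shared a stretch of 117 bases before RefSeq's starts with 6 positions not all alike (capitals), at chr14:43819700-43819816 (minus strand) for Ear1, chr14:44102479-44102595 (plus strand) for Ear2 and chr14:51853571-51853687 (plus strand) for Ear6, all GRCm38.p6. Ear1 and Ear2, but not Ear6, had counts in 1 naive library (replicate 3), and any link of those counts to these bases was not tested. For Ear1 the stretch lies in an intron of the annotated transcript.
Ear1 upstream: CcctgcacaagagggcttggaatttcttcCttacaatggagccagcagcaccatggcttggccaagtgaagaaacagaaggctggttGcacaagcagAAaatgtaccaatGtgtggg
Ear2 upstream: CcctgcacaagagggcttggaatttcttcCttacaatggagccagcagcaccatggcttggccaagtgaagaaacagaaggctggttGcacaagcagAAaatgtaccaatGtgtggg
Ear6 upstream: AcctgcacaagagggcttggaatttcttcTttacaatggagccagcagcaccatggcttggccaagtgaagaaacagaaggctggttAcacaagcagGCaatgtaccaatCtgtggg
Ear1 and Ear2 were identical over these bases. Their C/EBP-type match spans 1 of the 6 positions, and Ear6 held no such match in its window.

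Ear6 had 0 counts in each naive library and 8.27, 3.36, 3.48 and 2.10 CPM in allograft replicates 1 to 4, from 61 to 364 counts. All 4 allografts exceeded all naive libraries, with replicate 1 the highest. The allograft mean was at least 67.4-fold higher than the naive floor. Levels of Ear1 were 0, 0 and 8.99 CPM in the 3 naive libraries and 8.34, 7.22, 0 and 3.64 CPM in allograft replicates 1 to 4. Those of Ear2 were 0, 0 and 17.85 CPM in naive and 14.3, 2.81, 3.89 and 10.9 CPM in allograft libraries. For both genes the highest of the 7 libraries was naive replicate 3, and the groups overlapped.

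The ratio of the allograft to the naive mean was 1.6 for Ear1 and 1.34 for Ear2, and 1.07 and 0.892 without naive replicate 2, so the direction for Ear2 turned. Without naive replicate 3, Ear1 and Ear2 had no naive counts. Summing all Ear genes and pseudogenes, which removes the choice between copies, gave 0, 0 and 27.9 CPM in the naive libraries and 31.6, 13.9, 8.37 and 17.4 CPM in the allografts, a ratio of means of 1.91 (1.28 without naive replicate 2). The overlap with naive replicate 3 thus remained for the family as a whole. Ear-ps9 had 38 counts in allograft replicate 3, where Ear1 had 0.

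Ear1 and Ear2 are also known from alveolar macrophages. A list of 12 other alveolar macrophage genes summed to 380 CPM in naive replicate 3, to 0 in naive replicate 1, to 1156 in naive replicate 2 and to 142 to 240 CPM in the allografts. In naive replicate 3 the sum came with Chil3 at 247, Plet1 at 68.4, Fabp1 at 26.3, Ctsk at 19.6 and Krt79 at 14.5 CPM, while Car4 was at 0. In naive replicate 2, where no Ear gene had a count, it came with Atp6v0d2 (400.0 CPM), Plet1 (343 CPM), Cd9 (299.9 CPM) and Car4 (108 CPM), while Krt79 was at 0. Marco, Cidec and Itgax of the list were at 0 in all 3 naive libraries, as was Siglecf. The part of such cells in the Ear values was not tested.

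Ccr3 (ENSMUSG00000035448, chr9:124021972-124031689, plus strand), the eotaxin receptor, was at 9.39, 0 and 0 CPM in the 3 naive libraries and at 24.6, 21.6, 19.9 and 15.9 CPM in allograft replicates 1 to 4. It varied least among the allografts, with a coefficient of variation of 17.8% against 34.7% for Prg2 and 40.1% for Retnla, and every allograft exceeded every naive library. The allograft mean of 20.5 ± 3.65 CPM (SD, n = 4) was 6.55 times the naive mean of 3.13 ± 5.42 CPM (SD, n = 3), and 4.37 times without naive replicate 2. The naive mean came from replicate 1 alone. CCR3 is carried by basophils as well, and in naive replicate 1 the basophil protease Mcpt8 had 114 CPM and the basophil receptor Cd200r3 70.6 CPM, both the highest of the 7 libraries, and in the allografts Mcpt8 had 9.45 to 29.96 CPM. Of the mast cell and basophil list, Cpa3 (153 CPM), Cma1 (81.9 CPM) and Ms4a2 (1.70 CPM) were also highest in naive replicate 1. Tpsb2 (46.3 CPM) and Mcpt4 (10.95 CPM) were above every allograft there. The rest of the list lay below the allografts in that library. Prss34 was at 0 (7.00 to 13.9 CPM in the allografts) and Fcer1a at 5.60 CPM (9.42 to 20.3 CPM). Hdc (7.41 CPM), Gata2 (1.26 CPM) and Kit (21.1 CPM) had their lowest levels of the 7 libraries there. The list summed to 514 CPM there, between the 105 and 752 CPM of the other naive libraries. Their part in the Ccr3 values was not tested.

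Siglecf (ENSMUSG00000039013, chr7:43351341-43359531, plus strand) had 0 counts in each naive library and 0.227, 0, 3.45 and 0.825 CPM in allograft replicates 1 to 4, from 0 to 141 counts. Its highest library was allograft replicate 3, the one without Epx, Prg3 or Ear1. The mean was at least 17.7-fold higher than the naive floor, and at least 5.50-fold without allograft replicate 3. Alox15 (ENSMUSG00000018924, chr11:70344152-70352031, minus strand) had 0 counts in each naive library and 5.43, 0.154, 0 and 4.81 CPM in the allografts. It was high in replicates 1 and 4, the pair in which Retnla and Prg2 were highest, and rested on 5 counts in replicate 2. Its mean was at least 40.7-fold higher than the naive floor, and at least 25.95-fold without allograft replicate 1.

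Across the 10 genes allograft replicate 1 was the highest allograft for 9 and allograft replicate 3 the lowest for 6. Mean allograft FPKM fell from Retnla (234) and Prg2 (103) to Ear2 (9.55 ± 6.59), Ear1 (5.66 ± 4.45), Ccr3 (5.40 ± 0.945) and Ear6 (3.90 ± 2.47), all SD with n = 4. Prg3 (1.84), Epx (1.80), Alox15 (0.909 ± 1.03) and Siglecf (0.347 ± 0.496) followed. From Ear2 downwards, neighbours in this order differed by less than the larger of their SDs.

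Beyond the 10 genes, 24 other eosinophil genes were read from the same fit, listed by their known role. Of these, 17 were tested and 0 passed edgeR's quasi-likelihood test, with 2 at an unadjusted p under 0.05 (10.3% of all genes tested) and 1 call by DESeq2 (Cd300lf, where 6.66% of all genes were called). In 3 of the 17 (Cd300lf, Pirb and Cd101) every allograft exceeded every naive library, beside 12.5% of all genes. Their median log2 fold change was 0.43 against -0.01 for all genes tested, and 0.86 against 0.23 without naive replicate 2. Cd300lf, an inhibitory receptor of myeloid cells, had 0 counts in each naive library and 3.45, 3.12, 7.07 and 1.96 CPM in the allografts (adjusted p = 0.144 with edgeR, and 0.0437 without naive replicate 2, the 1 call there). Rnase2a, a ribonuclease related to the Ear genes, was at 0 in the naive libraries and at 1.52, 0, 3.33 and 0.721 CPM in the allografts (edgeR adjusted p = 0.341). Both were highest in allograft replicate 3, like Siglecf.

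The regulators and receptors of the list differed widely in level. Gata1, which directs eosinophil development, had 0 counts in all 7 libraries, as did Ear14, Rnase2b and Clec4a4. Cebpe, needed for granule formation, was seen in allograft replicate 4 alone (0.893 CPM, 26 counts). Il5ra, the receptor chain for interleukin 5, reached at most 1.58 CPM in the allografts and 1.43 CPM in naive replicate 2. The receptor chains Csf2rb and Csf2rb2 and the regulator Cebpa were also low in the allografts. They had 0.727 to 2.47, 0 to 1.79 and 0.216 to 1.69 CPM there, and up to 7.66, 4.13 and 6.09 CPM in naive libraries. Csf2ra, Il3ra and Trib1 were well above these levels in the allografts. Csf2ra, of the receptor for GM-CSF, had 16.7 to 21.4 CPM, Il3ra 6.76 to 9.52 CPM and Trib1 28.3 to 53.4 CPM. All 3 overlapped the naive libraries, which had 1.56 to 20.4, 1.60 to 8.19 and 12.5 to 41.9 CPM. The most abundant genes of the list, such as Alox5 and Xbp1, overlapped between the groups. Alox5 had 0.813 to 123 CPM in naive and 69.6 to 99.2 CPM in allograft libraries, and Xbp1 had 46.2 to 71.3 and 39.5 to 81.4 CPM.

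**Figure D3:**
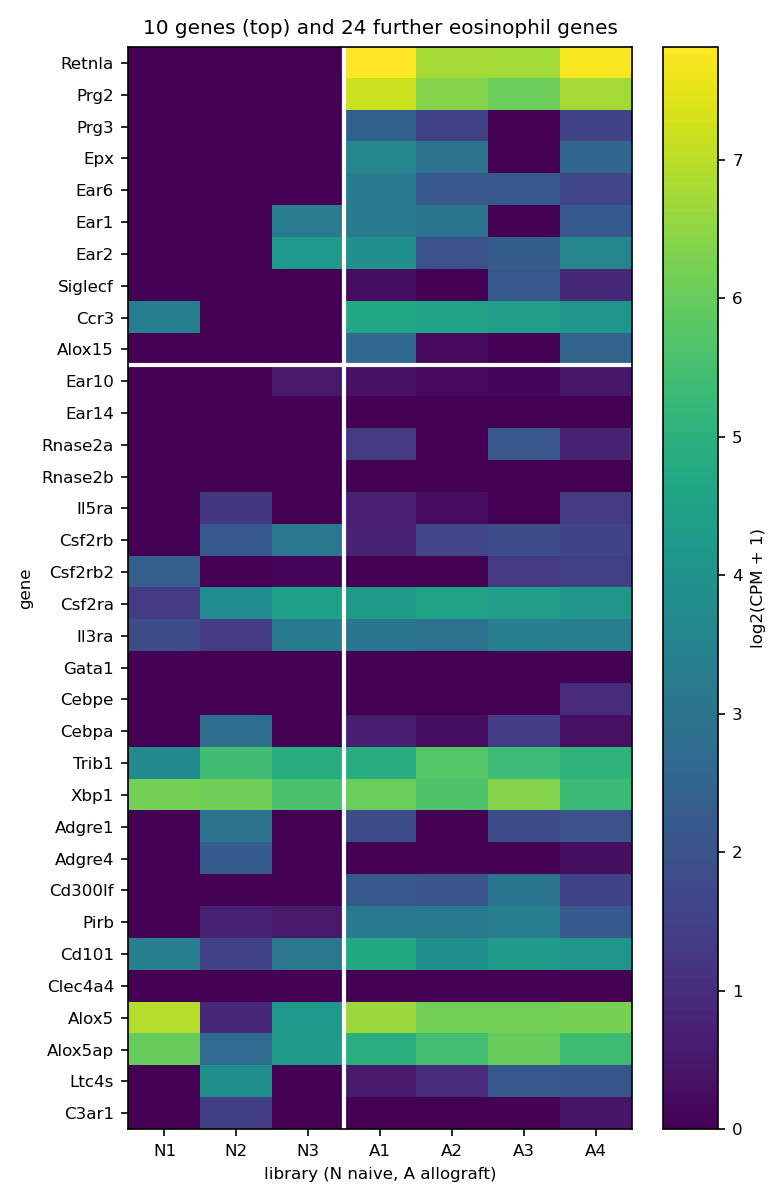
Levels as log2(CPM + 1) (colour) of the 10 genes above the white line and 24 further eosinophil genes below it, in naive (N1 to N3) and allograft (A1 to A4) libraries. Retnla and Prg2 are the brightest of the upper rows in all 4 allografts and dark in all 3 naive libraries, and Gata1, Ear14, Rnase2b and Clec4a4 are at 0 throughout.

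Genes that respond to interleukins 4 and 13 were listed because Retnla is one of them. Of 15 such genes all were tested and 0 passed edgeR's test, with 3 at an unadjusted p under 0.05 and 2 calls by DESeq2 (Ccl17 and Ccl22), beside 10.3% and 6.66% of all genes. Every allograft exceeded every naive library for 5 of the 15 (Ccl17, Ccl22, Mgl2, Pdcd1lg2 and Stat6), beside 12.5% of all genes. Ccl17, a chemokine for T helper 2 cells, had 0, 6.11 and 10.2 CPM in naive and 242, 247, 282 and 209.9 CPM in allograft libraries (log2 fold change 5.21, SE 1.66, edgeR adjusted p = 0.341). Ccl22, which binds the same receptor, had 0, 1.43 and 0 CPM in naive and 69.4, 41.4, 68.6 and 36.3 CPM in allograft libraries (edgeR adjusted p = 0.341). Without naive replicate 2, Ccl22 (adjusted p = 0.0161), Mgl2 (0.0198) and Il13ra1 (0.0443) passed edgeR's test. The direction of Il13ra1 turned with that library, which had 38.2 CPM, the highest of the 7: its log2 fold change was -2.56 with all libraries. Pdcd1lg2, the ligand PD-L2, had 11.7, 0 and 1.70 CPM in naive and 25.2 to 38.6 CPM in allograft libraries, and Stat6 itself had 24.8 to 68.5 and 76.3 to 94.3 CPM (edgeR adjusted p = 0.653 and 0.499). The other 10 genes overlapped between the groups, among them Arg1 and Chil3, known targets of the same cytokines. Arg1 had 1586, 5.69 and 167 CPM in naive and 761 to 995 CPM in allograft libraries, and Chil3 had 0, 2.22 and 247 CPM in naive and 43.8 to 103 CPM in allograft libraries.

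Of 13 genes for cytokines and chemokines that feed or attract eosinophils, 11 were tested and 0 passed edgeR's test, with 2 at an unadjusted p under 0.05 and 1 call by DESeq2, beside 10.3% and 6.66% of all genes. Every allograft exceeded every naive library for 4 of the 11 (Ccl11, Ccl5, Il4 and Il13), beside 12.5% of all genes. The gene called by DESeq2 was Ccl11 (eotaxin-1), at 0 in each naive library and at 3.77, 3.73, 2.84 and 6.12 CPM in the allografts (edgeR adjusted p = 0.144, and 0.0413 without naive replicate 2, where Ccl7 also passed). Ccl5, another CCR3 ligand, had 19.1, 16.0 and 96.6 CPM in naive and 165, 177, 154 and 167 CPM in allograft libraries (log2 fold change 1.79, SE 0.62, edgeR adjusted p = 0.342). Il5 had 286, 3.89 and 445 CPM in naive and 581, 404, 541 and 414 CPM in allograft libraries, and overlapped between the groups (edgeR adjusted p = 0.855). Il4 had 32.4, 0.901 and 43.98 CPM in naive and 52.4 to 74.0 CPM in allograft libraries, and Il13 had 12.7, 0 and 8.47 CPM in naive and 16.8 to 22.95 CPM in allograft libraries. Both were higher in each allograft than in each naive library without passing edgeR's test (adjusted p = 0.743 and 0.834).

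Markers of other cells that a sort for ILC2s could hold were summed per library. Neutrophil markers (12 genes) summed to 1.13 to 12.99 CPM in naive and 79.2 to 138 CPM in allograft libraries, of which Retnlg gave 37.7 to 62.0 CPM, and dendritic cell markers (9 genes) to 12.7 to 31.8 and 91.4 to 117 CPM. Both sums had every allograft above every naive library, as Retnla and Prg2 did. Among the allografts the neutrophil sum was highest in replicate 1, like Retnla and Prg2. The dendritic cell sum was highest in replicate 3, where Retnla and Prg2 were lowest. Macrophage markers (14 genes) summed to 209 to 994 CPM in naive and 526 to 805 CPM in allograft libraries. Of that sum, Ccr2 gave 206, 5.74 and 514 CPM in naive replicates 1 to 3 and 339 to 614 CPM in the allografts. The rest of it in naive replicate 1 was Lyz2 (2.49 CPM). Mast cell and basophil markers (12 genes) summed to 105 to 752 and 347 to 380 CPM. The sums of these cell types overlapped, as did that of 12 ILC2 genes (1154 to 15041 and 11472 to 12152 CPM). The 10 eosinophil-type genes summed to 0 to 26.8 and 199.8 to 445 CPM. Most of the allograft sums came from Retnla and Prg2, which were selected on this contrast. They gave 223.8 and 144.4 CPM in allograft replicate 1, the highest sum, and 104.0 and 65.0 CPM in replicate 3, the lowest.

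Defining markers were also read singly. Csf1r, the macrophage growth factor receptor, had 0, 26.2 and 10.99 CPM in naive and 0.636 to 2.78 CPM in allograft libraries. Adgre1, which encodes F4/80 of macrophages and eosinophils, had 6.51 CPM in naive replicate 2 and at most 3.02 CPM in the allografts, and Itgam (2 identifiers) had 0 counts in every naive library and at most 2.10 CPM in the allografts. S100a8, a neutrophil calcium-binding protein, had 0, 6.79 and 0 CPM in naive and 45.8, 26.0, 23.2 and 24.2 CPM in allograft libraries. The neutrophil granule genes Camp and Ngp had 0 naive counts and at most 1.42 and 9.27 CPM in the allografts (edgeR adjusted p = 0.144 each). Mpo had 0 in allograft replicates 1 and 3, and 1.42 and 0.721 CPM in replicates 2 and 4. Elane had 0 in all 4 allografts. The dendritic cell genes Itgax (6.73 to 10.6 CPM) and Flt3 (16.3 to 27.2 CPM) had adjusted p-values of 0.144 and 0.478 with edgeR, and the basophil and mast cell genes Prss34 (7.00 to 13.9 CPM) and Hdc (33.5 to 39.8 CPM) had 0.144 and 0.169. With all 7 libraries 0 genes of the neutrophil, dendritic cell, macrophage and mast cell and basophil lists passed edgeR's test. An unadjusted p under 0.05 in that test was reached by 4 of 7, 2 of 9, 0 of 11 and 3 of 11 tested (10.3% of all genes). Those genes were higher in allografts except Gata2 of the mast cell and basophil list (log2 fold change -2.59). DESeq2 called Camp, Ngp, Itgax, Prss34 and Hdc. The part of such cells in the levels of Retnla and Prg2 was not tested.

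Without naive replicate 2, edgeR's test called 3 of 10 neutrophil genes tested (Ngp, S100a8 and S100a9) and 7 of 9 dendritic cell genes. It called 3 of 13 macrophage identifiers (Cd68, C1qa and Ly6c2), 2 of 11 mast cell and basophil genes (Prss34 and Hdc) and 0 of 12 ILC2 genes. Of all 18037 genes tested, 3.1% were called. The list genes called were all higher in allografts in that fit, as were 542 of the 560 genes called. With all libraries C1qa (log2 fold change -1.30) and the dendritic cell gene Cd209a (-0.56) were lower in allografts, and naive replicate 2 had their highest levels (13.1 and 18.2 CPM). These calls rest on 2 naive libraries.

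**Figure D4:**
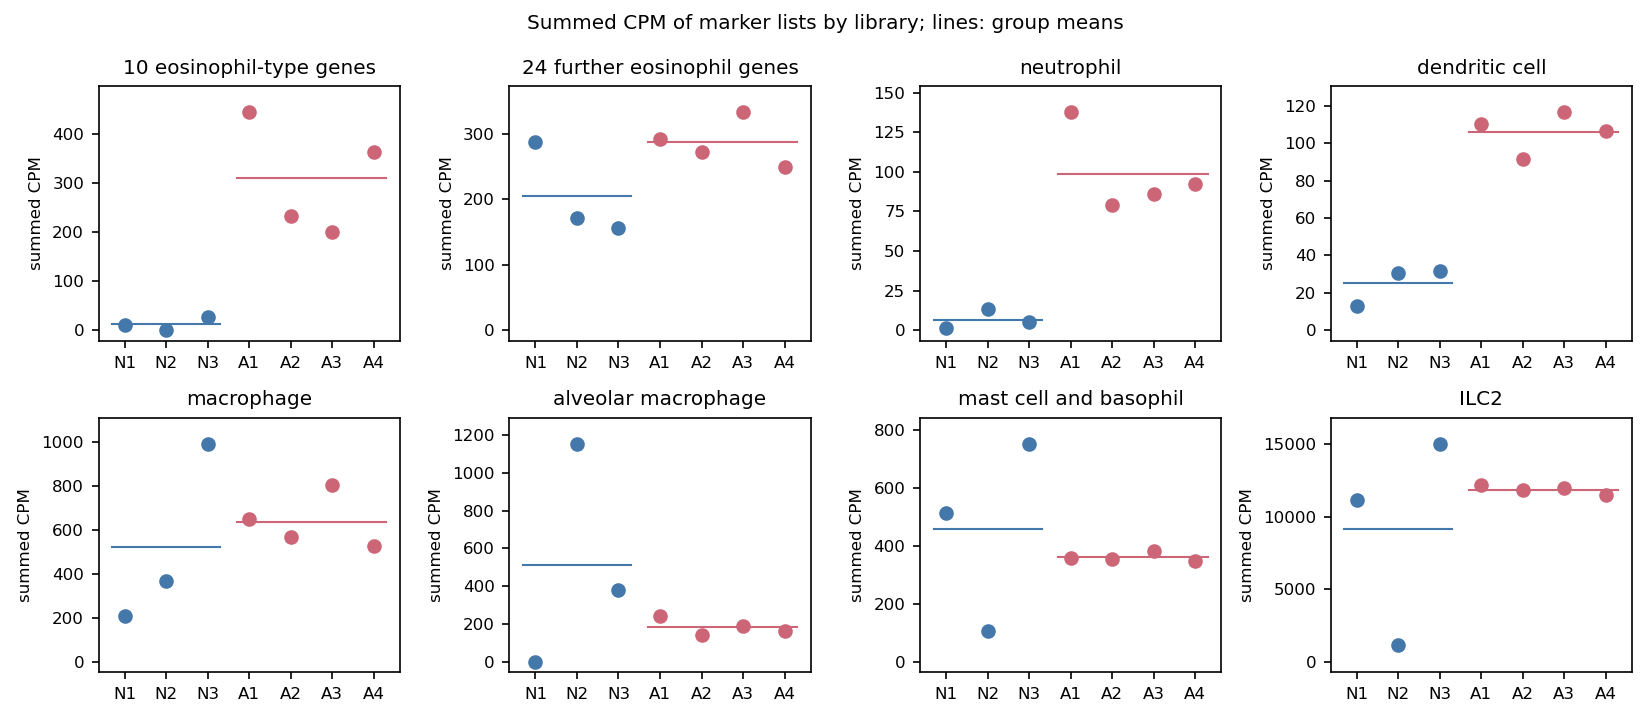
Summed CPM (vertical axes, linear, each with its own scale) of 8 gene lists in 3 naive (N1 to N3, blue) and 4 allograft (A1 to A4, red) libraries. Points are libraries and lines are group means. The 10 eosinophil-type genes, the neutrophil list and the dendritic cell list have all red points above all blue points, and the other 5 lists overlap. Retnla and Prg2 make up most of the eosinophil-type sum in each allograft.

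The genes most like Retnla and Prg2 in level over the 7 libraries were sought by the root-mean-square difference of log2(CPM + 1), with no test. Prg2 was the nearest gene to Retnla and Retnla the nearest to Prg2, at 0.527 log2 units. Igha, the immunoglobulin A heavy chain, came next, at 1.03 from Retnla and 0.562 from Prg2, with 0 in each naive library and 152.9, 53.6, 54.4 and 42.0 CPM in the allografts. Tnfsf4, which encodes OX40 ligand, lay at 1.04 and 0.592, with 0 in each naive library and 72.6, 50.2, 83.7 and 55.5 CPM in the allografts. Ccl22 (1.36 and 0.928) and Jchain, the joining chain of secreted antibodies (1.40 and 0.898), completed both sets of 5. No other granule gene was among them. The measure compares levels, so the granule genes of far lower level could not come near, whatever their pattern.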

How the data were processed

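RNA of 7 pooled libraries was amplified as full-length cDNA and sequenced, per the labels. The authors deposited whole-number counts per gene and FPKM for the same genes. Per the submitters' processing notes the tools were FastQC 0.11.5, STAR 2.5.3a, StringTie 1.3.1c and DESeq2 1.16.1 with build mm10. The annotation release and any use of strand are not given in the sources used here. Once each gene's length and each library's scale were removed, FPKM and CPM differed by at most 0.0436 on the log2 scale over 7340 genes, so both tables carry 1 measurement. Groups came from the sample titles.

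CPM was computed from the deposited counts. Allograft and naive libraries were compared with edgeR 4.0.16 (R 4.3.3; TMM, filterByExpr, quasi-likelihood test, Benjamini-Hochberg, threshold 0.05) over 17015 genes, after a check on simulated data. Alternatives were DESeq2 1.42.0, limma 3.58.1 on log2(FPKM + 0.1) and log2(FPKM + 1), other filters and size factors, a replicate block and leaving out each library. The summed Ear family and the leave-one-out values of fold bounds and of groups that do not overlap were added after seeing the data. The 10 genes and the lists were chosen with earlier results of these data known.

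Genes were named by rule: all 10 genes, up to 3 per direction past the threshold in each list or otherwise the 2 with the smallest p, the 5 nearest patterns, and 9 defining markers. Other list members were named by level after their values were seen. Identity between transcripts was computed with Biopython 1.88 on GENCODE M21. Sequences are from RefSeq (promoters) and the mm10 genome (coding).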

Additional observations from a re-analysis of the deposited data

How the results depend on the processing

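The number of genes past the threshold was 6 with all 7 libraries. It was 1012 with DESeq2's Wald test, 201 with limma on log2(FPKM + 0.1) and 76 on log2(FPKM + 1), while DESeq2 size factors and no low-count filter gave 4 each. Leaving out 1 library gave between 0 (any allograft, where 848 to 1074 had an unadjusted p below 0.05) and 560 (naive replicate 2). Without naive replicates 1 and 3 it was 107 and 7. List genes other than the 10 past the threshold numbered 0 in edgeR, 9 with DESeq2, 7 and 6 with limma, and 0 to 21 with 1 library left out, with 21 for naive replicate 2 and 3 for naive replicate 1. The number of the 10 genes with every allograft above every naive library was 4 with all libraries and with TMM-scaled CPM, and 4 to 7 with 1 library left out. It was 7 without allograft replicate 3 and 5 without naive replicate 3 or allograft replicate 2. The share of all genes was computed only with all libraries and without naive replicate 2. Fold bounds with 1 library left out were 2213 to 2840 for Retnla, 1328 to 1743 for Prg2, 60.5 to 119 for Epx, 46.7 to 78.96 for Ear6, 19.9 to 42.7 for Prg3, 25.95 to 54.3 for Alox15 and 5.50 to 23.5 for Siglecf. The cause of these shifts was not tested.

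Same-numbered naive and allograft libraries did not deviate together (correlations 0.017, -0.018 and 0.037), so the numbers do not pair them. With the replicate block 0 genes passed in edgeR, with 252 at an unadjusted p under 0.05.

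At these depths a level below 0.0566 to 0.103 CPM was not detectable. The naive group rests on 3 pools, 1 of which stands apart, and strain and transplantation cannot be told apart.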
